A study of Homo sapiens with 16 samples.

Results

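The 10 genes described here form the NF-kappa-B module of the bronchial epithelial cell line 16HBE: the subunits NFKB1, NFKB2, RELA and RELB, the nuclear IkappaB proteins BCL3 and NFKBIZ, the cytoplasmic inhibitors NFKBIA and NFKBIE, and the feedback proteins TNFAIP3 and BIRC3. They were chosen by gene name, as every non-control probe that the array annotation assigns to these symbols, which gave 11 probes of 58201 and 10 gene names of 42665. The choice was made with earlier results of these data known. All 11 probes were well above background on all 16 arrays and were among the 34599 probes tested. RELA had 2 probes, of which the brighter stood for the gene, and NFKBIA was printed as 10 spots, of which 6 to 9 per array had no outlier mark and were averaged.

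16HBE is a human bronchial epithelial line immortalised with SV40 large T antigen. The 16HBE-ex14 cells were edited with CRISPR/Cas9 so that exon 14 of the receptor tyrosine kinase MET is skipped, and those measured here were a single clone, clone F. Cells were starved for 2 h, and those treated with HGF, the ligand of MET, then received 20 ng/mL of it over 24 h. There were 4 arrays in each of 4 groups: 16HBE-WT without HGF, 16HBE-WT+HGF, 16HBE-ex14 without HGF and 16HBE-ex14+HGF, all starved in the same way. Per the study's methods, the 4 replicates were cultured 1 week apart. The samples of 16HBE-WT+HGF carry another abbreviation in their titles, and their genotype field places them in the wild type.

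NF-kappa-B is a family of dimeric transcription factors that are held in the cytoplasm by IkappaB proteins. Signals from cytokine and pattern recognition receptors activate kinases that mark IkappaB for degradation, and the released dimers enter the nucleus and act at kappaB sites of inflammatory, survival and adhesion genes. Several of the genes they act on encode regulators of the pathway itself, among them the inhibitors NFKBIA, NFKBIE and TNFAIP3 and the ubiquitin ligase BIRC3, which closes feedback loops.

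The promoter sequences of RefSeq (GRCh38.p14) are shown for the genes whose levels differed most between the groups and for NFKB2, because kappaB sites lie close to their starts. A window from 250 bases before to 50 bases after a gene's start was held for 8 of the 10 genes, with 13 windows in all, and was not held for RELB and NFKBIE. The kappaB consensus, searched on both strands, was present in 9 of the 13 windows and in 7 of the 8 genes, RELA being the exception, against 11.3% of 35116 windows of the same length. The AP-1 motif TGANTCA, also searched on both strands, was in 0 of the 13 windows, against 7.71% of all windows, which says only that these letters are not in these windows. Each sequence is written 5′ to 3′ on the gene's strand, with kappaB matches in capitals.
NFKBIA, chr14:35404750-35404869, minus strand: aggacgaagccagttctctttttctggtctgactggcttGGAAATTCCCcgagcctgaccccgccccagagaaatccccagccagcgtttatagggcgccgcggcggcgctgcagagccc
BCL3, chr19:44748588-44748719, plus strand: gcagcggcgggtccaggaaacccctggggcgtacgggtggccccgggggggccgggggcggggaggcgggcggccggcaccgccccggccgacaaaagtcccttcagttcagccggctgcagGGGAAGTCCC
TNFAIP3, chr6:137867139-137867258, plus strand: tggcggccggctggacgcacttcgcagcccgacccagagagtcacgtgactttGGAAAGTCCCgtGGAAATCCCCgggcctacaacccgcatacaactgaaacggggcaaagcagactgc
NFKB2, second window, chr10:102394458-102394577, plus strand: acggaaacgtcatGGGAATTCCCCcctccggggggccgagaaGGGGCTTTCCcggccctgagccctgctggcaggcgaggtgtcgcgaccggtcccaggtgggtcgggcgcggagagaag
The match of NFKBIA began at -81 from the start, those of TNFAIP3 at -67 and -55, and that of BCL3 at 2, just past the start. In NFKB2 the first capital run holds a pair of overlapping matches, at -107 and -106, and the other match begins at -78. A match describes the letters and was not measured as a bound site here.

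All levels below are log2 values of the scanner's processed signal minus the 75th percentile of the same array, so 0 is the level of that percentile, and levels are compared between groups for 1 gene and not between genes. A gene was taken as changed when its fold change was above 1.5, which is 0.58 on the log2 scale, and its p value from limma, adjusted by Benjamini-Hochberg over all 34599 probes, was below 0.05. Differences are given with their standard error (SE). Both SE and p values rest on the spread between arrays within groups, pooled over the 4 groups. For each probe limma draws that spread towards the value typical of all probes. The MET probe averaged 4.97 without and 5.00 with HGF in the wild type and 5.10 without and 5.16 with HGF in the edited cells, and none of its comparisons passed; it is not known to lie in the skipped exon and so does not check the edit. The 75th percentile of the arrays ranged from 139.5 to 262.8 intensity units, and 49.0% to 60.3% of probes were well above background, the 16HBE-ex14+HGF arrays being at 55.7% to 60.3%. All 8 epithelial markers examined were well above background on every array, while the lists of other cell types were detected in part. Of the fibroblast genes COL1A1 and PDGFRB were on all 16 arrays, LUM on 8, and COL1A2, COL3A1 and DCN on none; of the endothelial genes VWF and CDH5 were on all 16, and PECAM1 and KDR on none; of the leukocyte list PTPRC, CD3E and CD14 were on all 16. The arrays lay on 2 slides, each holding 2 arrays of every group.

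HGF in 16HBE-ex14 cells lowered BCL3 and NFKBIA, and no member rose. BCL3 fell 1.69-fold and NFKBIA 1.57-fold. With only the arrays of the compared groups the differences were unchanged, but neither adjusted p stayed below 0.05 (BCL3 0.0804, NFKBIA 0.0581). That of BCL3 was also above 0.05 under spike-in scaling (0.0756) and without the filter on dim probes (0.0518). NFKB2 and NFKBIE had adjusted p values below 0.05 with fold changes under the limit, at 1.26-fold and 1.35-fold lower. The 2 members that fell, of 10, stand beside 0.957% of all probes that fell by the same rule, and the 4 with an adjusted p below 0.05 beside 1.52%. The members were chosen with earlier results of these data known, so these and later counts are no independent evidence about the pathway. The median difference of the 10 members was -0.25, against 0.05 over all probes, and 9 of the 10 were on the lower side. The arrays read the RNA of a whole culture, so fewer cells with a transcript and less of it per cell cannot be told apart.

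BCL3, a nuclear IkappaB protein that binds p50 and p52 homodimers and can activate transcription with them, is measured by a probe at chr19:45263191-45263250 (hg19). Its level was 3.75, 3.99, 3.70 and 4.35 on the 16HBE-ex14 arrays and 3.42, 3.07, 3.13 and 3.14 on the 16HBE-ex14+HGF arrays. All arrays with HGF were below all arrays without. The difference was -0.76 (SE 0.17, adjusted p = 0.0233), and it was -0.63 on the first slide and -0.89 on the second. In 16HBE-WT cells the level was 4.06, 3.81, 4.25 and 4.08 without HGF and 3.73, 4.03, 3.67 and 4.30 with it, and these groups overlapped. The adjusted p of the fall in 16HBE-ex14 did not stay below 0.05 in fits that left out replicate 2 or 4 of 16HBE-ex14 or replicate 2, 3 or 4 of 16HBE-ex14+HGF, where it lay between 0.0707 and 0.0811 and the difference between -0.74 and -0.62.

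NFKBIA encodes IkappaB-alpha, the rapidly resynthesised inhibitor that carries NF-kappa-B back out of the nucleus, and its probe lies at chr14:35870788-35870847 (hg19). Its level was 5.66, 5.84, 5.57 and 6.04 on the 16HBE-ex14 arrays and 5.23, 5.10, 5.07 and 5.11 on the 16HBE-ex14+HGF arrays. The groups did not overlap, and the 4 arrays with HGF lay within a narrower range than those without. The difference was -0.65 (SE 0.11, adjusted p = 0.00565), with -0.59 on the first slide and -0.72 on the second. Without replicate 4 of 16HBE-ex14, its highest array, the difference was -0.56 (adjusted p = 0.0231), under the fold limit. In 16HBE-WT the level was 5.87, 5.67, 5.89 and 5.90 without HGF and 5.56, 5.72, 5.46 and 5.78 with it, a difference of -0.21 (SE 0.11, 95% interval -0.44 to 0.03) with overlapping groups.

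NFKBIE encodes IkappaB-epsilon, another cytoplasmic inhibitor, and is probed at chr6:44226558-44226617 (hg19). Its level was 4.02, 3.96, 3.82 and 4.05 in 16HBE-ex14 and 3.49, 3.59, 3.45 and 3.60 in 16HBE-ex14+HGF. These groups did not overlap, and the difference of -0.43 (SE 0.08, adjusted p = 0.00946) did not reach the fold limit. It did reach it when arrays were scaled to their median, at -0.59. That scaling lowered all probes of this comparison alike, moving their median from 0.05 to -0.11.

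Among the subunits, NFKB2, which encodes the p100 precursor of p52, had levels of 0.30, 0.29, 0.22 and 0.49 in 16HBE-ex14 and -0.10, 0.06, -0.02 and 0.03 in 16HBE-ex14+HGF. The groups did not overlap, and the difference was -0.34 (SE 0.08, adjusted p = 0.0329), with adjusted p values of 0.0983 under spike-in scaling, 0.1004 without the filter on dim probes and 0.182 with only the compared arrays. RELB, the usual partner of p52 in the non-canonical pathway, was at 6.36, 6.16, 6.60 and 6.78 without HGF and at 5.70, 6.05, 6.10 and 6.08 with it. These groups did not overlap either, and the difference of -0.49 (SE 0.15) had an adjusted p of 0.112. Groups that do not overlap on the lower side were found for 5 of the 10 members, BCL3, NFKBIA, NFKBIE, NFKB2 and RELB, and for 4.45% of all probes.

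For the other 5 members the groups overlapped. RELA, the main transactivating subunit, differed by -0.04 (95% interval -0.34 to 0.26) and its other probe by -0.14. NFKB1, which encodes p105 and p50, differed by -0.05 (95% interval -0.34 to 0.23). NFKBIZ, a nuclear IkappaB protein needed for secondary response genes, differed by -0.17 and varied most between arrays, with a standard deviation of 0.40 in 16HBE-ex14. TNFAIP3, the ubiquitin-editing enzyme A20, was 0.17 higher (95% interval -0.21 to 0.55), and BIRC3, the ubiquitin ligase cIAP2, was 0.14 lower (95% interval -0.43 to 0.15).

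**Figure D1:**
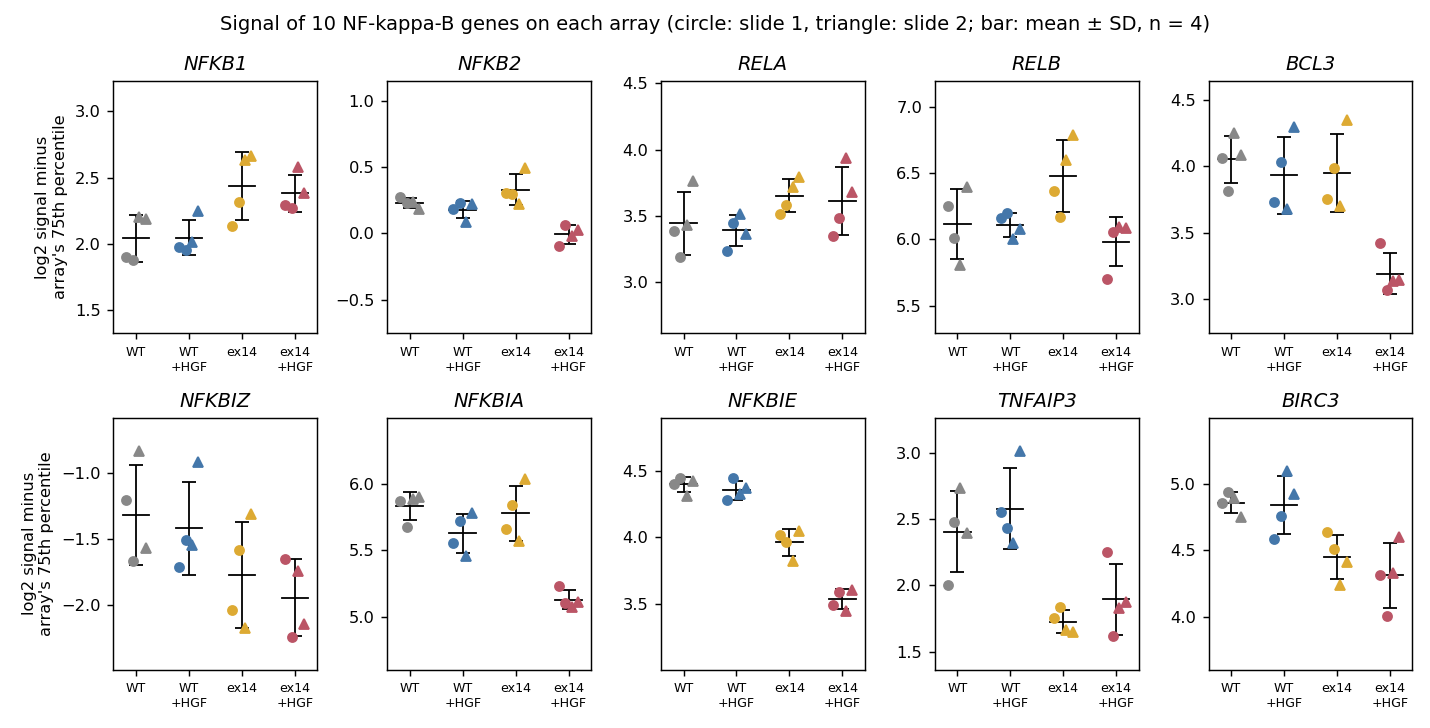
Level of each of the 10 genes (log2 signal minus the array's 75th percentile, vertical axis, spanning the same height in every panel) on the 4 arrays of each group, with circles for slide 1, triangles for slide 2 and bars for the mean ± SD (n = 4). The 16HBE-ex14+HGF arrays of BCL3, NFKBIA, NFKBIE and, narrowly, NFKB2 lie below those of every other group, and both 16HBE-ex14 groups of NFKBIE lie below both wild-type groups.

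HGF in 16HBE-WT cells changed no member. With p values adjusted within the comparison, limma gave 0 probes with an adjusted p below 0.05, with or without the fold limit (0% of probes in each direction), while 1694 probes and 0 members had an unadjusted p below 0.05. With p values adjusted over the 5 comparisons together, 85 probes passed both thresholds, and still 0 members. The member differences ran from -0.21 for NFKBIA to 0.18 for TNFAIP3, and their median was -0.05 against 0.04 for all probes. The intervals were wide enough that a fall of NFKBIA by up to 0.44 was not excluded by them.

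The difference between the HGF responses of the genotypes was tested directly, since a change that passed in 1 genotype and not in the other is no test of that difference. No member and no probe passed (0 of 34599 with adjusted p below 0.05), and 1600 probes and 5 members had an unadjusted p below 0.05. Adjusted over the 5 comparisons together, 162 probes passed both thresholds, and 4 did with normexp background correction or with a trended and robust prior, none of them members. The 5 members with an unadjusted p below 0.05 were NFKBIE at -0.39 (95% interval -0.63 to -0.15, adjusted p = 0.658), NFKBIA at -0.45 (-0.78 to -0.11, adjusted p = 0.916), BCL3 at -0.64 (-1.14 to -0.14, adjusted p = 0.941), NFKB2 at -0.29 (-0.52 to -0.05) and RELB at -0.49 (-0.95 to -0.03). All 5 had the lower response in 16HBE-ex14, and 2.16% of probes had an unadjusted p below 0.05 in that direction. After adjustment over the array, a larger fall of these members in 16HBE-ex14 than in 16HBE-WT was therefore not shown. The difference shares its arrays with the HGF comparisons above.

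**Figure D2:**
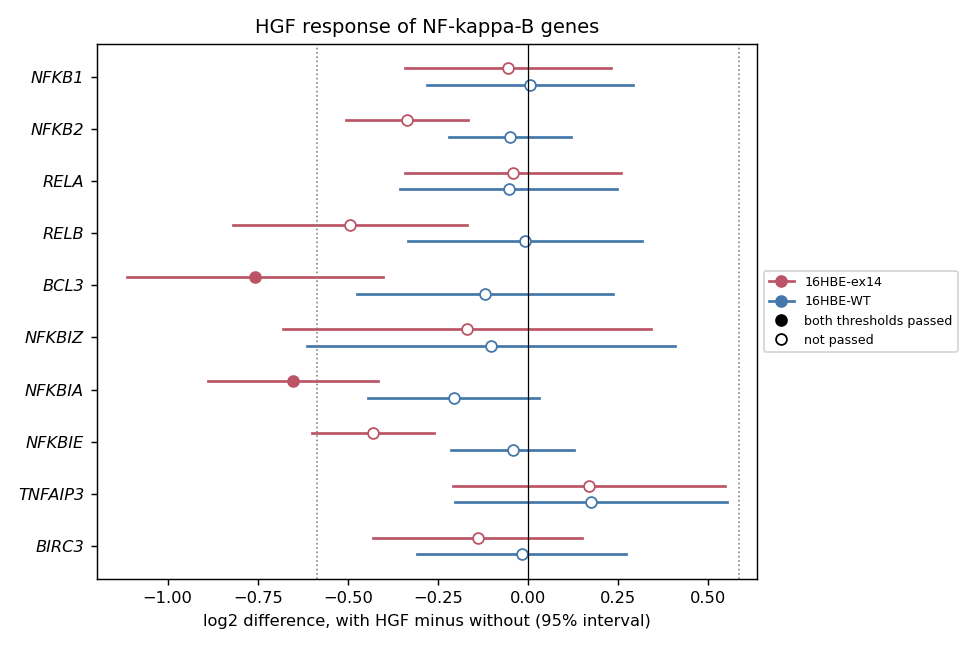
Log2 difference with HGF minus without (horizontal axis) and its 95% interval for each gene, in the edited cells and in the wild type, with dotted lines at the fold limit of 1.5 and filled points for genes past both thresholds. BCL3 and NFKBIA in 16HBE-ex14 are the filled points, and every 16HBE-WT interval includes 0.

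Without HGF, 16HBE-ex14 cells had less TNFAIP3 than 16HBE-WT cells, by 1.60-fold, and NFKBIE was 1.35-fold lower with an adjusted p below 0.05 under the fold limit. No member was higher past the thresholds. The 1 member that was lower, of 10, stands beside 4.88% of all probes, and the 2 with an adjusted p below 0.05 beside 8.72%. Clone F is the only edited clone here, so the edit and properties of that clone cannot be told apart.

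TNFAIP3 restrains signalling by removing and adding ubiquitin chains on adaptors upstream of the IkappaB kinase, and its probe lies at chr6:138203679-138203738 (hg19). Its level was 2.00, 2.48, 2.74 and 2.39 on the 16HBE-WT arrays and 1.75, 1.84, 1.66 and 1.65 on the 16HBE-ex14 arrays. The edited cells were below the wild type on all arrays, and the wild-type arrays were the more scattered. The difference was -0.68 (SE 0.18, adjusted p = 0.0148), with -0.45 on the first slide and -0.91 on the second. Without replicate 3 of 16HBE-WT, its highest array, it was -0.57 (adjusted p = 0.0486), under the fold limit. The call was also lost under 4 of 15 alternatives, among them normexp background correction, median scaling and spike-in scaling. With HGF the levels were 2.56, 2.43, 2.32 and 3.01 in the wild type and 2.25, 1.62, 1.83 and 1.87 in the edited cells, again without overlap, and the difference was -0.69 (SE 0.18, adjusted p = 0.0124), with -0.56 and -0.81 on the slides. Without replicate 4 of 16HBE-WT+HGF, its highest array, it was -0.54 (adjusted p = 0.0411), under the fold limit. Here 3 of 15 alternatives lost the call, among them normexp background correction and spike-in scaling. The genotype differences of TNFAIP3 in the 2 media themselves differed by -0.01, with a wide 95% interval of -0.54 to 0.53.

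NFKBIE was at 4.40, 4.45, 4.31 and 4.42 in 16HBE-WT, above the 4 arrays of 16HBE-ex14 given earlier, and the difference was -0.44 (SE 0.08, adjusted p = 0.00152; -0.44 on the first slide and -0.43 on the second). In 16HBE-WT+HGF it was at 4.28, 4.45, 4.32 and 4.37. Set against these, the 16HBE-ex14+HGF arrays differed by -0.82 (SE 0.08, adjusted p = 7.97e-06), a 1.77-fold difference that passed both thresholds, at -0.83 on the first slide and -0.82 on the second. NFKBIE had the smallest adjusted p of the members in each genotype comparison.

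Both genes are on chromosome 6, and the genes around TNFAIP3 also read lower in the edited cells. Of its 50 nearest tested genes, 25 on each side over 8.22 Mb, 36 were lower without HGF and 10 of them passed both thresholds, with a median of -0.30 against -0.02 over all probes. With HGF, 43 of the 50 were lower and 11 passed, with a median of -0.43 against a value near 0 over all probes, and no neighbour was higher past the thresholds in either medium. Around NFKBIE, 34 of 50 genes over 3.54 Mb were lower without HGF, with a median of -0.21, and 31 of 50 with HGF, with a median of -0.06; 3 and 4 of them passed as lower, beside 4.88% and 5.52% of all probes, and 2 and 1 of the neighbours passed as higher. The part of the neighbourhood in either result was not tested. Neighbours of the other members had medians between -0.10 and 0.13 in these 2 comparisons. BCL3 and RELB lie near each other on chromosome 19, and their neighbours spanned 1.60 and 1.55 Mb. Their neighbour sets therefore overlap and are not 2 separate results. In the HGF comparison of the edited cells, these neighbours had medians of -0.12 (34 of 50 lower, 1 passing) and -0.10 (32 of 50 lower, 3 passing), against 0.05 over all probes. The passes as lower stand beside 0.957% of all probes, and 0 and 1 neighbours passed as higher, beside 1.05%. The part of these neighbours in the values of BCL3 and RELB was not tested either.

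**Figure D3:**
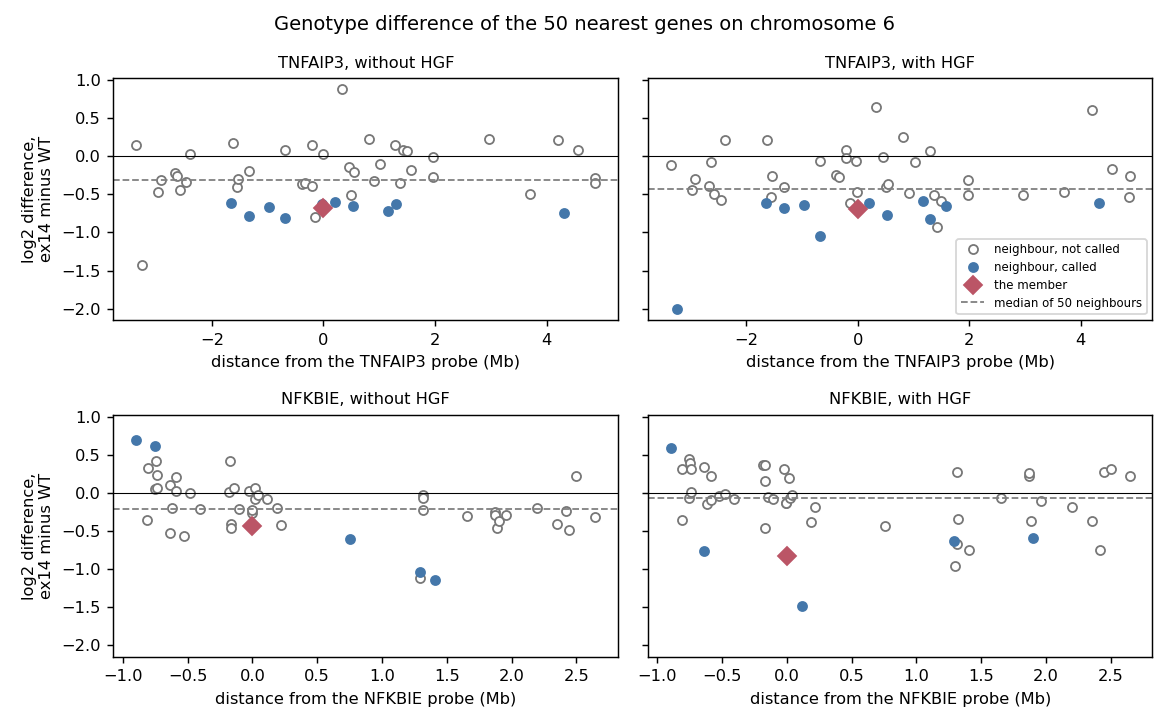
Log2 difference of 16HBE-ex14 minus 16HBE-WT (vertical axis) for the 50 nearest tested genes of TNFAIP3 and of NFKBIE against their distance from the member's probe in Mb (horizontal axis), without and with HGF; the diamond is the member, filled circles passed both thresholds and the dashed line is the neighbours' median. The neighbours of TNFAIP3 have medians of -0.30 and -0.43, and those of NFKBIE of -0.21 and -0.06.

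With HGF, 16HBE-ex14 cells had less NFKBIE, BCL3 and TNFAIP3 than 16HBE-WT cells, by 1.77-fold, 1.67-fold and 1.61-fold. NFKBIA and BIRC3 were lower by 1.41-fold and 1.45-fold with adjusted p values below 0.05 under the fold limit. The 3 members that passed, of 10, stand beside 5.52% of all probes, and the 5 with an adjusted p below 0.05 beside 10.2%. The median of the members was -0.51, against a value near 0 over all probes. This comparison shares the 16HBE-ex14+HGF arrays with the HGF comparison in the edited cells, so the 2 are not independent.

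BCL3 differed by -0.74 (SE 0.17, adjusted p = 0.00533) with no overlap between the groups, at -0.64 on the first slide and -0.85 on the second. NFKBIA differed by -0.50 (SE 0.11, adjusted p = 0.00498), also with no overlap, at -0.47 and -0.53. Without HGF neither gene passed, with differences of -0.10 (95% interval -0.46 to 0.25) for BCL3 and -0.05 (-0.29 to 0.18) for NFKBIA, values whose sign turned positive under some other scalings of the arrays.

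BIRC3 was at 4.85, 4.94, 4.89 and 4.75 in 16HBE-WT and at 4.64, 4.51, 4.24 and 4.41 in 16HBE-ex14, without overlap, and the difference of -0.41 (SE 0.14) had an adjusted p of 0.0501, 0.0407 with slide and 0.0674 with array row as a block, on either side of the threshold. With HGF it was at 4.59, 4.76, 5.10 and 4.92 in the wild type and at 4.31, 4.003, 4.33 and 4.60 in the edited cells, where the highest edited array lay just above the lowest wild-type array. That difference was -0.53 (SE 0.14, adjusted p = 0.0119). It was -0.52 on the first slide and -0.55 on the second.

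NFKB1 was the member highest in the edited cells relative to the wild type. It was at 1.90, 1.88, 2.21 and 2.19 in 16HBE-WT and 2.14, 2.31, 2.64 and 2.66 in 16HBE-ex14, and the difference was 0.39 (SE 0.13, adjusted p = 0.0534). The arrays of the second slide were the higher ones in both groups, and with slide as a block the adjusted p was 0.00337. With HGF it was at 1.98, 1.96, 2.01 and 2.25 in the wild type and 2.30, 2.27, 2.58 and 2.38 in the edited cells, without overlap, with a difference of 0.33 (SE 0.13, adjusted p = 0.0952, or 0.00820 with slide as a block). Both differences stayed under the fold limit.

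The remaining subunits and NFKBIZ did not pass in either genotype comparison. RELA differed by 0.21 without and 0.22 with HGF, RELB by 0.36 and -0.12, and NFKB2 by 0.10 and -0.19. NFKBIZ differed by -0.46 and -0.52, with 95% intervals of -0.97 to 0.05 and -1.03 to -0.01 and an adjusted p of 0.147 for the latter. Groups without overlap on the lower side numbered 3 members without HGF, beside 10.3% of all probes, and 5 with HGF, beside 11.8%; 1 member, NFKB1, lay without overlap on the higher side with HGF, beside 12.2%.

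The summed level of the 6 fibroblast genes also differed between the genotypes, from -0.87 to 0.05 in 16HBE-WT against -1.63 to -0.98 in 16HBE-ex14, and with HGF from -0.82 to -0.32 against -1.32 to -1.24. COL1A1, at a mean of -1.73, and PDGFRB, at -2.95, were the members of that list detected on every array, and its part in the differences above was not tested. The 8 epithelial genes summed to between 10.6 and 10.99 on all arrays, and the leukocyte list to between -0.62 and 0.37 with overlapping groups.

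**Figure D4:**
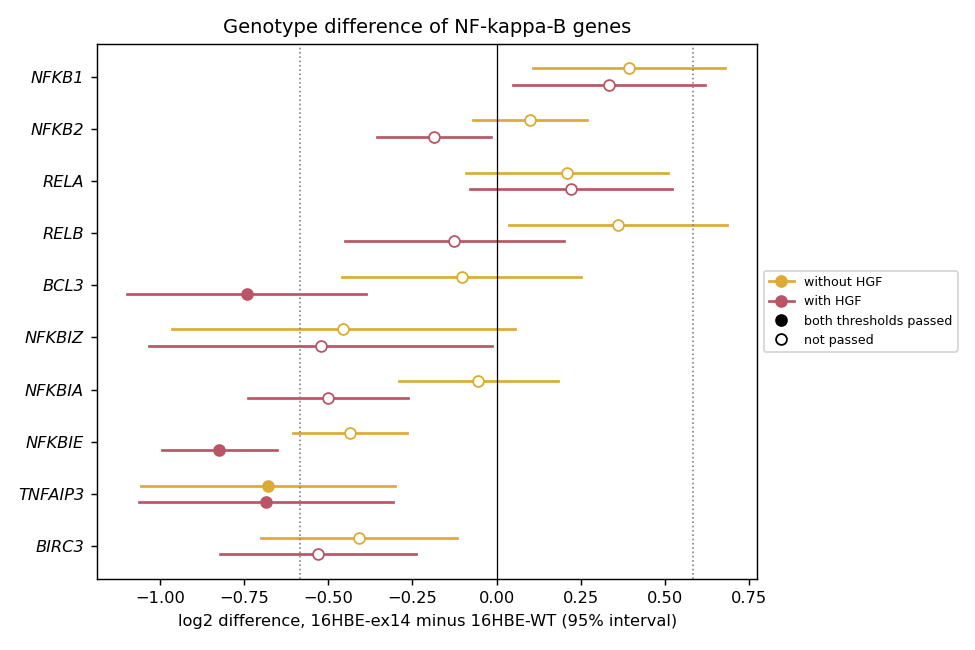
Log2 difference of 16HBE-ex14 minus 16HBE-WT (horizontal axis) and its 95% interval for each gene without and with HGF, with dotted lines at the fold limit and filled points past both thresholds. TNFAIP3 is filled in both media, NFKBIE and BCL3 with HGF, and NFKB1 and RELA lie above 0 in both.

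The members differed in how they varied across the 16 arrays, and the correlations given here describe arrays that share groups and slides. BCL3 and NFKBIA followed each other most closely, with Pearson's r of 0.967 over the 16 arrays and of 0.946 after the group means were removed. NFKBIE and BIRC3 had an r of 0.815 and of 0.245 after removal of the group means, so this pair mostly shared differences between groups. For NFKB1 and NFKBIE these values were -0.68 and -0.38. Of all tested probes of other genes, those nearest to BCL3 were NFKBIA, MPZL1 (0.956) and UTRN (0.956), and those nearest to NFKBIA were MPZL1 (0.976), BCL3 and RARRES3 (0.966). The nearest to NFKBIE were ANP32E (0.984), GBP3 (0.973) and DEPDC1 (0.972), and the nearest to TNFAIP3 were LOC642852 (0.953), AHSA2P (0.946) and IL1B (0.941).

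Upstream of the members are the kinases and adaptors of the pathway. Of 30 listed regulators 29 were tested, and in 16HBE-ex14 cells HGF changed 0 of them past either rule, beside 1.05% of all probes higher and 0.957% lower past both thresholds, with 21 of 29 lower and a median of -0.15 against 0.05 over all probes. Between the genotypes 0 passed both thresholds without HGF, beside 4.51% of all probes higher and 4.88% lower. With HGF TRAF5 and MALT1 passed as higher and REL as lower, beside 5.32% and 5.52% of all probes. TRAF5, an adaptor of TNF receptors, was 0.77 higher (SE 0.21, adjusted p = 0.0185), and REL, the remaining subunit of the family, differed by -0.67 (SE 0.14, adjusted p = 0.00416). MALT1, the paracaspase of the CARD-BCL10 complex, was well above background on 4 of 4 arrays of 16HBE-ex14+HGF and 0 of 4 of 16HBE-WT+HGF, so no size is given. It was tested only because it was detected in the edited cells, so its pass is no support for a difference. The counts of regulators that were higher with HGF include it. Under the adjusted p alone and without HGF, 3 of the 29 regulators were higher and 1 lower, beside 9.63% and 8.72% of all probes. Higher were the adaptor TRADD by 0.57 (adjusted p = 0.00194), the kinase MAP3K14 by 0.50 (0.00247) and TRAF2 by 0.27 (0.0396). MAP3K7, which encodes the kinase TAK1, was the lower one, at -0.51 (adjusted p = 0.00252). By the same rule with HGF 3 were higher and 5 lower, beside 10.4% and 10.2%. TRADD differed by 0.43 (adjusted p = 0.00985) and MAP3K7 by -0.57 (0.000994), while MAP3K14 at 0.28 (0.0566) and TRAF2 at 0.20 (0.121) did not pass. The others that passed were TRAF5, MALT1 and REL, given above, and TAB2 (-0.41), NFKBID (-0.57) and IKBKE (-0.41), all 3 lower.

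Of 16 listed receptors that feed the pathway, 15 were tested, and 0 passed both thresholds with HGF in 16HBE-ex14. TLR3, a sensor of double-stranded RNA, differed by -0.51 there (adjusted p = 0.0135), the 1 receptor with an adjusted p below 0.05, beside 1.52% of all probes lower by that rule. Between the genotypes 1 was higher and 0 lower without HGF, beside 4.51% and 4.88% of all probes, and 2 were higher and 1 lower with it, beside 5.32% and 5.52%. TNFRSF12A, the receptor of TWEAK, was higher in the edited cells by 0.81 (SE 0.12, adjusted p = 0.00042) without HGF and by 0.80 (adjusted p = 0.000357) with it. TNFRSF1A, the main TNF receptor, was higher by 0.58 (SE 0.08, adjusted p = 0.000203) without HGF, just under the fold limit, and by 0.59 (adjusted p = 0.000144) with it, just over. By the adjusted p alone, 3 receptors were higher and 2 lower in each medium, beside the 9.63% and 8.72% without and 10.4% and 10.2% with HGF given above. Besides those named, LTBR, the lymphotoxin receptor, was higher in both, at 0.36 and 0.25, CD40 was lower in both, at -0.55 and -0.39, and IL1R1 was lower without HGF, at -0.55. TLR2, a receptor of bacterial lipoproteins, differed by -1.501 (SE 0.30, adjusted p = 0.00244) with HGF, being well above background on 3 of the 4 arrays of 16HBE-ex14+HGF. Unlike for the members, genes around the listed regulators, receptors and targets on their chromosomes were not examined. The part of such neighbourhoods in the genotype differences of these lists was not tested.

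All 36 listed target genes were tested, and they moved in both directions. With HGF in 16HBE-ex14 cells, 5 fell and 2 rose, beside 0.957% and 1.05% of all probes. SAA1 and SAA2, acute phase proteins that are near-identical in sequence and may share signal, fell by 1.76 (SE 0.25, adjusted p = 0.00181) and by 1.56 (SE 0.22, adjusted p = 0.00192). The chemokine CCL2 fell by 1.48 (SE 0.24, adjusted p = 0.00416), LTB, a membrane-bound TNF family ligand, by 1.20, and the interferon regulatory factor IRF1 by 0.64. The growth factor CSF3 rose by 2.12 (SE 0.37, adjusted p = 0.00691) and the metalloprotease MMP9 by 1.44 (SE 0.28, adjusted p = 0.0112). CSF3 was well above background on 2 of the 4 arrays of 16HBE-ex14 and on all 4 of 16HBE-ex14+HGF.

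Without HGF, 9 targets were lower and 5 higher in 16HBE-ex14 than in 16HBE-WT, beside 4.88% and 4.51% of all probes. CCL2 had the largest difference of the list, at 3.94 (SE 0.24, adjusted p = 1.16e-07), with a mean of -2.10 ± 0.47 (SD, n = 4) in 16HBE-WT and 1.85 ± 0.42 in 16HBE-ex14. LCN2, an iron-sequestering protein of epithelia, was 1.45 higher, and the cytokine TNF (0.88), the urokinase PLAU (0.76) and the cytokine LIF (0.67) were the other higher ones. Lower were CSF3 (-2.45), the cytokines IL1B (-2.17, SE 0.27, adjusted p = 7.29e-05) and IL1A (-1.97) and SAA1 (-1.83). The cyclooxygenase PTGS2 also passed as lower, but no size is given, since it was well above background on 1 of 4 arrays of 16HBE-ex14. It met the filter only through the wild-type arrays, being well above background on 4 of 4 in both wild-type groups. Of the 16HBE-ex14+HGF arrays, 2 of 4 had it well above background. Its pass is therefore no support for a difference, though the 9 include it. CSF3 was well above background on 2 of 4 arrays of 16HBE-ex14, so its size rests in part on signals near background. With HGF, 10 targets were lower and 6 higher, beside 5.52% and 5.32%. The lower ones included SAA1 (-2.75), SAA2 (-2.40), IL1B (-1.98), IL1A (-1.79) and the complement component C3 (-1.42), and the higher ones CCL2 (3.30), LCN2 (1.83), PLAU (1.17), LIF (0.93) and the chemokine CXCL3 (0.76). In 16HBE-WT cells 0 of the regulators, receptors and targets passed with HGF, beside 0% of all probes in each direction. The targets called with HGF in 16HBE-ex14 differed in the same direction there. These were SAA1 (-0.84), CCL2 (-0.84), LTB (-0.61), SAA2 (-0.51), IRF1 (-0.27), CSF3 (0.96) and MMP9 (0.71). In the difference of the HGF responses 0 of the listed genes passed, so a response particular to 16HBE-ex14 was not shown.

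**Figure D5:**
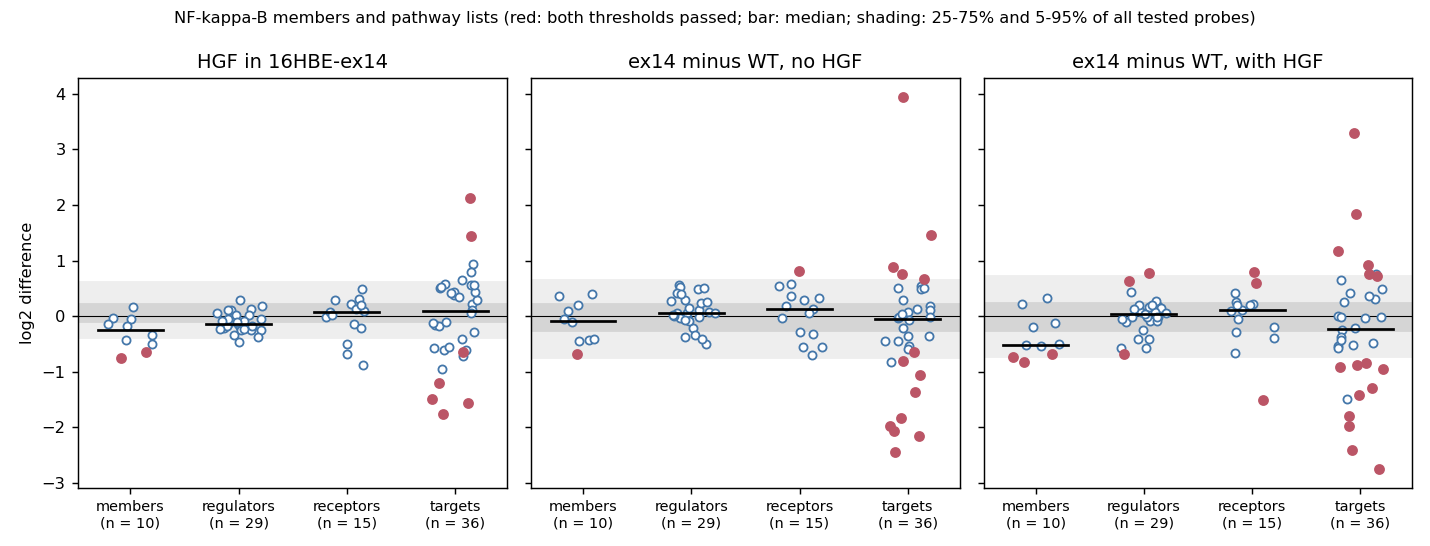
Log2 difference (vertical axis) of the 10 members and of the listed regulators, receptors and targets in 3 comparisons, with red points past both thresholds, bars at the list median and shading for the middle 50% and 90% of all tested probes. The targets spread from -2.75 to 3.94 over the 3 comparisons, wider than the members, which lie between -0.82 and 0.39.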

How the data were processed

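RNA of 16HBE-WT and 16HBE-ex14 cells with and without HGF was measured on 16 one-colour Agilent arrays, 4 per group. The intensity values the authors deposited are the processed signals of Feature Extraction 10.7.3.1 (per the submitters' processing notes), on a linear scale after background subtraction and detrending, without any scaling across arrays; the series-wide table repeats these values. The study's figures refer to normalised values, and its methods name limma but not how arrays were normalised. Here spots with an outlier mark were dropped, each array's log2 values were set relative to their 75th percentile and spots sharing a probe were averaged, in R 4.3.3 with limma 3.58.1. A probe was tested if 4 or more of the 16 arrays had it well above background. The number of arrays limits the precision. One mean per group was fitted over all 16 arrays and 5 contrasts were taken. The files do not tell which array came from which weekly culture, and replicate numbers follow slide and row. Samples of the same row correlated no more closely (median r = 0.20 of deviations from group means over probes) than samples of the other row of the slide (0.21). Samples of different slides had a median r of -0.20. Deviations sum to 0 within a group, so a positive r within slides brings a negative one between them. The arrays thus grouped by slide and not by row. No label names a batch, and whether slide also stands for culture week cannot be told here. The main fit has no slide term; slide was balanced over groups and entered as a block in an alternative.

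Members and lists were chosen with earlier results of these data known. Every member is named, of each list at most 5 genes per direction by fold change among those past both thresholds, and for members past them the 3 genes of highest correlation; TRADD, MAP3K14, TRAF2, MAP3K7, TAB2, NFKBID, IKBKE, TLR3, LTBR, CD40 and IL1R1 were chosen after their values were seen. Gene names and hg19 positions are those of the array files, and all member accessions matched a RefSeq entry of the same symbol. Promoters were read from RefSeq windows with Python 3.11.15. Tested on simulated data of the HGF comparison in 16HBE-ex14 over 34563 probes, the fit called 40% of probes changed by 0.75 on the log2 scale and 68% of those changed by 1. The simulated noise was independent between probes and arrays, and 50 randomly picked probes were changed at each size. A planned search of the member proteins for the IkappaB degradation motif was not run, as no protein sequences were used here. Alternatives were normexp with an offset of 50, quantile, median and spike-in scaling, other filters, outlier spots kept, the deposited table, blocks for slide or row, array weights, a robust prior with trend, fewer arrays, joint adjustment, no fold limit, treat, the mean over probes, and leaving out each array.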

Additional observations from a re-analysis of the deposited data

Results flagged for a closer look

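Of 40 sets of 4 arrays (10 members in 4 groups), 2 held an array far from the other 3 by Dixon's test, about the 1 in 20 that chance gives. RELB in 16HBE-ex14+HGF had 1 low array at 5.70 beside 6.05, 6.10 and 6.08, with a gap of 0.889 of the group's range. NFKBIA in 16HBE-WT had 1 low array at 5.67 beside 5.87, 5.89 and 5.90, with a gap of 0.854 of the range.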

How the results depend on the processing

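Of the members with HGF in 16HBE-ex14 cells, 2 passed in the main fit, 1 with spike-in scaling (adjusted p of BCL3 0.0756) or without a filter on dim probes (0.0518), 0 with only the arrays of the compared groups (BCL3 0.0804, NFKBIA 0.0581), 4 without the fold limit and 0 with treat. Leaving out arrays gave 0 to 2, and 0 without replicate 4 of 16HBE-ex14. Of the members that differed between the genotypes without HGF, 1 passed in the main fit, 0 with normexp (TNFAIP3 -0.58, just under the limit), median scaling (adjusted p 0.0620), spike-in scaling (0.0885) or treat, and 2 without the fold limit; leaving out arrays gave 0 to 1. With HGF 3 members passed, 5 without the fold limit, 0 with treat and 2 to 4 when an array was left out; TNFAIP3 did not pass with normexp (-0.58) or spike-in scaling (adjusted p 0.0622), and BIRC3 passed with quantile normalization (-0.61). By the adjusted p alone, NFKBIE did not pass with HGF in 16HBE-ex14 with only the compared arrays (0.0970) nor between the genotypes without HGF under median scaling (0.142), and with HGF NFKBIA did not under median (0.0969) or spike-in scaling (0.0551), nor BIRC3 under median scaling (0.0665) or with only the compared arrays (0.0554); RELB with HGF in 16HBE-ex14 passed it under quantile normalization (0.0366) and the trended robust prior (0.0431). The causes were not tested. With array row as a replicate block, 2, 0, 1 and 3 members passed with HGF in 16HBE-ex14, with HGF in 16HBE-WT and between the genotypes without and with HGF, the same genes as in the main fit, and the slide block gave the same calls of members.

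Signs turned for values that passed in no setting. NFKB1 with HGF in 16HBE-WT was 0.0056 and became -0.014 with normexp, -0.00039 with quantile, -0.11 with median and -0.018 with spike-in scaling. Between the genotypes without HGF, BCL3 became 0.033 with median scaling, and NFKBIA 0.020 with normexp, 0.083 with median and 0.029 with spike-in scaling. In the difference of the responses RELA became -0.030 with median and -0.034 with spike-in scaling, and TNFAIP3 0.0063 with normexp and 0.011 with quantile normalization.

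Scaling to the array median moved the median of all probes with HGF in 16HBE-ex14 from 0.05 to -0.11, and the share of higher ones among called probes from 52.2% to 24.1% (41.7% with spike-in scaling). Between the genotypes it moved that share from 48.0% to 71.8% without HGF (64.4% with spike-ins, 60.0% with normexp) and from 49.1% to 66.0% with HGF. In the simulation 40% of probes changed by 0.75 were called, so changes of the size seen in the members can be missed in 4 arrays against 4.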

Other observations

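The levels of CCL2 in the 4 groups had means of -2.10 ± 0.47 (SD, n = 4) without and -2.94 ± 0.22 with HGF in 16HBE-WT, and 1.85 ± 0.42 without and 0.36 ± 0.26 with HGF in 16HBE-ex14. SAA1 had means of 2.78 ± 0.31, 1.94 ± 0.38, 0.95 ± 0.46 and -0.81 ± 0.29 in the same order. LTB had means of 1.59 ± 0.39, 0.99 ± 0.49, 1.24 ± 0.29 and 0.04 ± 0.54.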
